A study of Mus musculus with 6 samples.

Results

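The genes described are the subunits of integrins and the adhesion proteins that work beside them. They were chosen by symbol: protein-coding genes whose symbol starts with Itga or Itgb and names an integrin subunit, the 4 syndecans, and Ilk, Fermt1, Fermt2, Fermt3, Tln1, Tln2, Vcl and Ptk2. This gave 39 genes, 27 of them integrin subunits, of 21853 protein-coding genes in the annotation. Open chromatin was mapped with ATAC-seq, whose transposase cuts and tags exposed DNA, in 3 young and 3 middle-aged libraries of skeletal stem and progenitor cells (SSPCs). The cells were grown in flasks from the marrow of tibiae and femora of untreated C57BL/6 mice, with no transgene or deletion in the labels, and were used at passage 1. Both groups shared strain, tissue, culture and passage and differed in the age label alone. The labels give neither the ages nor which or how many mice went into a library, so the spread between libraries may be partly technical. The comparison of the ages asked whether chromatin at the starts of these genes differed between young and middle-aged SSPCs.

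An integrin is a pair of 1 alpha and 1 beta chain that spans the membrane and grips matrix outside the cell. Talin and kindlin bind the tail of the beta chain and switch the receptor to its gripping state, and vinculin, integrin-linked kinase and focal adhesion kinase join the site to actin and to signalling. Leukocytes carry pairs built on the beta 2 and beta 7 chains, while stromal cells of bone rely mainly on beta 1 pairs and on alpha v pairs for collagen, fibronectin and other matrix. The genes were therefore grouped by role, with leukocyte subunits set against stromal subunits.

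A gene counted as having a peak in a library when a deposited peak overlapped the window 1 kb either side of any of its transcription start sites (TSSs). Where a gene had several such regions, the one called in most libraries was used as its leading region. Each leading peak has a summit height, the reads piled up at its summit over the genome-wide background of that library, and a percentile rank, its place by −log10 q among all peaks of its library, with 100 the strongest. A gene with no peak had none past the caller's threshold, which does not show that its chromatin was closed. No strand or transcript is read by ATAC-seq, so a peak at a start shared by neighbouring genes belongs to either.

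Some facts of the libraries bear on every value here. The lists held 27628 to 43941 peaks in young libraries and 46364 to 48344 in middle-aged ones. The 3 young libraries varied more, and young 3 stood apart, with the shortest list and the lowest background. Across genes with a peak in all 6 libraries, the median log2 summit height averaged 4.36 ± 0.25 over young and 4.85 ± 0.03 over middle-aged libraries (SD, n = 3 each), a shift of 0.49. Young 1 had the highest background and the lowest of these medians, 4.09, against 4.59 and 4.41 in young 2 and 3. Because of the shift, heights were centred on each library's median before the ages were compared, and each difference is relative to the shift. Markers were checked against the label SSPC. Of 12 leukocyte markers, 11 or 12 had a TSS peak in each library. Of 10 stromal markers, 5 or 6 had one in 5 libraries and 1 had one in young 3. Lepr, Prrx1, Col3a1 and Thy1 had none in any library. No T cell, B cell, muscle or hepatocyte marker had a peak, 1 of 4 megakaryocyte markers had one in each library, and 2 to 4 of 4 endothelial markers did, with at most 2 epithelial and 1 neuronal marker. Libraries of mixed cells cannot tell a smaller share of one cell type from less open chromatin in each cell. The part of the leukocyte markers in the values below was not tested.

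Stretches of DNA from leukocyte and stromal subunits are shown first, to show their base composition. For Itgax, Itgav, Itgb1 and Itgb5 these are the 250 bases before the RefSeq start (build GRCm38.p6, plus strand), at chr7:128129300-128129549, chr2:83724147-83724396, chr8:128685404-128685653 and chr16:33829415-33829664. For Itgam it is 250 bases around the median summit of its peak, at chr7:128063417-128063666, inside the gene and overlapping no annotated exon. Capitals mark a match to TGANTCA in Itgax, to GAGGAAGT in Itgav, to GGGCGG and GGAATG in Itgb1, to GGGCGG in Itgb5 and to TGTGGT in Itgam, each read on either strand.
Itgam: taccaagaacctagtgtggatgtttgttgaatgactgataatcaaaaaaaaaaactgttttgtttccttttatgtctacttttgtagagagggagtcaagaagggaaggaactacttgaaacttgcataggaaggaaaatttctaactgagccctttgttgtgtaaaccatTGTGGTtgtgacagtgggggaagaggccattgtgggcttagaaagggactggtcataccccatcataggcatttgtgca
Itgax: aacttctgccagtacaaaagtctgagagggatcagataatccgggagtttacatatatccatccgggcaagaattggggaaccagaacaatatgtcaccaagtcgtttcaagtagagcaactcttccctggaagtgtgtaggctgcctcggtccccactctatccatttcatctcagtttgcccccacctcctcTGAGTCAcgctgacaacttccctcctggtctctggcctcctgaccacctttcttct
Itgav: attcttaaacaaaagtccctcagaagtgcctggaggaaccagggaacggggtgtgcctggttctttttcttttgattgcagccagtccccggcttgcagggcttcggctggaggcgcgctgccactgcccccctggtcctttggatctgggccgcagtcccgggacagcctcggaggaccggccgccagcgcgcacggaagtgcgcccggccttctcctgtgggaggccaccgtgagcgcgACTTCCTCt
Itgb1: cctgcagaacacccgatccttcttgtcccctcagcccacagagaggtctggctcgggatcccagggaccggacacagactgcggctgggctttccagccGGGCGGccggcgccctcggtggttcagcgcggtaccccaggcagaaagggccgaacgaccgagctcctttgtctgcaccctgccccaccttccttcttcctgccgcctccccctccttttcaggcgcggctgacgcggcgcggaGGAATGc
Itgb5: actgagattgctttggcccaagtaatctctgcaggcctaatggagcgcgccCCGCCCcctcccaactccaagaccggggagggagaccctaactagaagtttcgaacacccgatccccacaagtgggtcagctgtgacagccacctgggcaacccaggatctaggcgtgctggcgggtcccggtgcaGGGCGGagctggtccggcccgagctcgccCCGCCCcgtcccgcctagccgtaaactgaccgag
The Itgax stretch holds 5 CpG pairs, against 18 for Itgav, 21 for Itgb1 and 18 for Itgb5. The Itgam stretch holds 0, but it lies inside the gene and is not comparable with these. The promoter window of Itgam, of 300 bases, holds 6. In the 300 bases of promoter of 16514 genes, TGANTCA (AP-1) occurred in 7.10%, GAGGAAGT (PU.1 and other ETS factors) in 3.12%, GGGCGG (SP and KLF factors) in 48.0%, GGAATG (TEAD) in 13.2% and TGTGGT (RUNX) in 14.8%. These are shares of promoters and give no background for the TGTGGT match in the Itgam stretch. A match is a description of letters and not a bound site.

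Of the 39 genes, 21 (53.8%) had a TSS peak in all 6 libraries, 12 (30.8%) in none and 6 in some. Of all protein-coding genes, 48.4% had one in all 6 and 38.5% in none. With each library left out in turn these counts were 21 to 22 and 12 to 13. Per library, 24, 24 and 22 genes had a peak in young 1 to 3, and 25, 24 and 25 in middle-aged 1 to 3. These were 61.5%, 61.5% and 56.4% of the set in young libraries, and 64.1%, 61.5% and 64.1% in middle-aged ones. Of all protein-coding genes, 54.5%, 56.8% and 49.5% had one in young libraries, and 57.4%, 57.4% and 58.0% in middle-aged ones. The classes differed widely. All 6 libraries had a peak at 6 of 8 stromal subunits, 6 of 8 linkers and 3 of 4 syndecans, but at 2 of 8 leukocyte subunits and 2 of 7 laminin-binding or epithelial subunits.

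**Figure D1:**
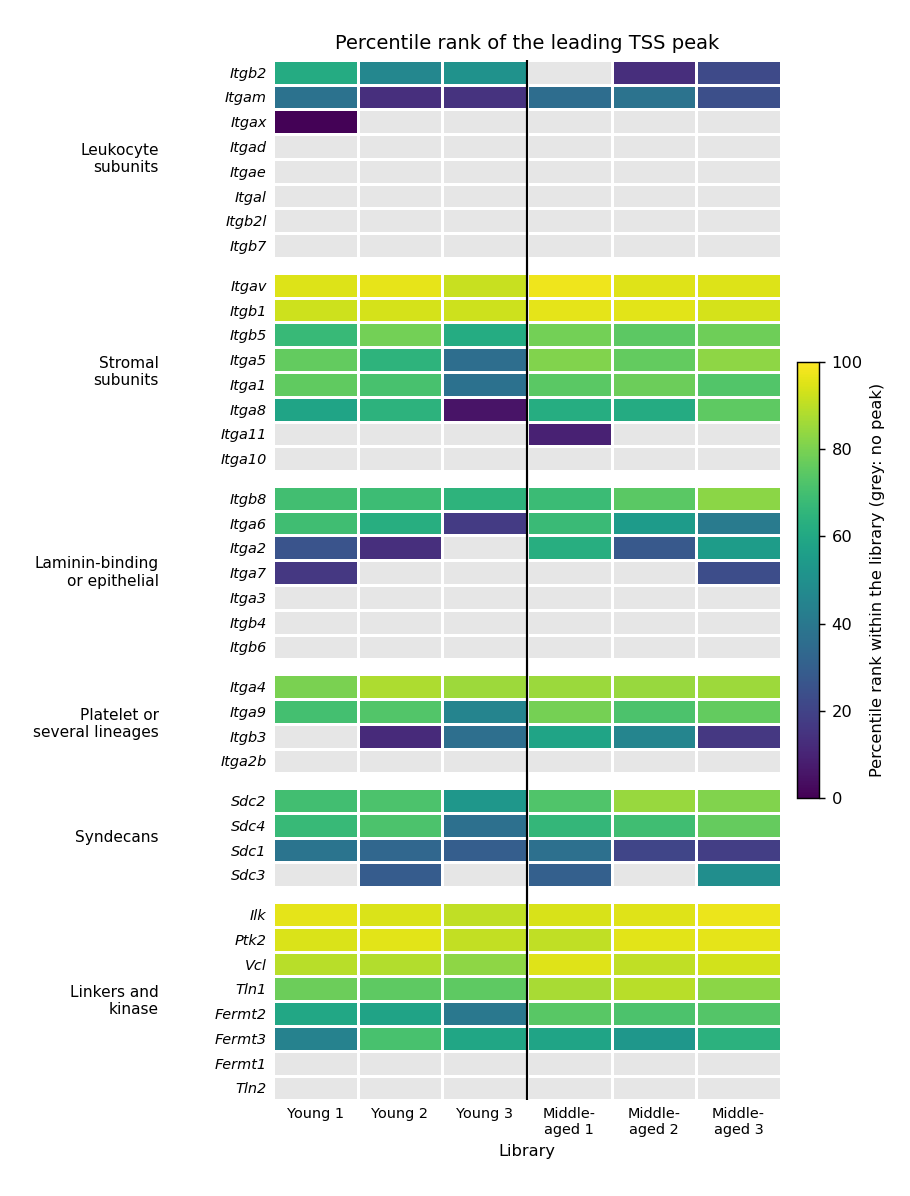
Percentile rank of the leading TSS peak (colour, 0 to 100) for the 39 genes (rows, by class) in the 6 libraries (columns), with grey for no peak. Leukocyte subunits are mostly grey, while Itgav, Itgb1, Ilk and Ptk2 rank above 90 in every library.

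Leukocyte subunits seldom had a peak at their starts. Itgal (alpha L, the LFA-1 chain), Itgad (alpha D), Itgae (alpha E of mucosal T cells), Itgb7 (its beta 7 partner) and Itgb2l (a beta 2-like chain) had no TSS peak in any library. The median rank of the 8 leukocyte subunits, with uncalled genes at 0, was 0 in every library. The median rank of the 8 stromal subunits was 71.6, 67.7 and 36.5 in young 1 to 3, and 76.6, 75.3 and 76.6 in middle-aged 1 to 3. Stromal subunits were thus higher in 6 of 6 libraries, least so in young 3. That sign was fixed, as the 5 of 8 leukocyte subunits uncalled in every library hold their median at 0. Each difference is the stromal median with its sign reversed. The laminin-binding or epithelial class lay near the leukocyte one, with a median rank of 0 in 4 libraries, 16.1 in young 1 and 23.2 in middle-aged 3. The mean difference of the medians, leukocyte minus stromal, was −67.4, and −73.6 without young 3. These genes stood beside leukocyte marker genes of which nearly all had a peak, with median ranks of 49.0 to 69.1.

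Itgam (alpha M, CD11b of macrophages and neutrophils) was the one leukocyte alpha chain with a peak in all 6 libraries. With a TSS window of 500 bp or with equally long lists it no longer had one in all 6. Its summit height was 7.20, 6.36 and 8.5 in young 1 to 3, and 8.27, 9.57 and 7.88 in middle-aged 1 to 3. The groups overlapped, and all 6 values were low, at ranks 13.3 to 38.1. Its centred log2 difference was −0.26 (limma, adjusted p = 0.774), and 0.23 without centring. Its summits lay 719 to 905 bp downstream of the nearest start, and all but that of young 3 fell within the CpG-free stretch printed above. The same region lies within 1 kb of a start of Gm49368. Itgax (alpha X, CD11c of dendritic cells and macrophages) had a peak in young 1 alone, with a height of 3.73 and a rank of 0.535.

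Itgb2 (beta 2, the partner of alpha L, M, X and D) had a peak over its start, at chr10:77530145-77530476, in 5 libraries. Its height was 9.07, 8.48 and 12.1 in young 1 to 3, with no call in middle-aged 1 and 6.24 and 6.80 in middle-aged 2 and 3. Every young value was above both middle-aged ones, at ranks of 46.3 to 61.2 against 13.2 and 22.4. In a fit of 11662 genes with a value in at least 2 libraries of each age, which left out the missing middle-aged 1, the centred height was 1.05 lower on the log2 scale in middle-aged libraries (log2 difference −1.05, SE 0.20). It did not pass (limma, adjusted p = 0.337, and 0.262 in the fit without middle-aged 1). This comparison was added after the values were seen. A further region 721 to 853 bp downstream of the nearest start was called in young 2 and in all 3 middle-aged libraries, at heights of 6.66 to 8.27. In middle-aged 2 and 3 it was higher than the peak at the start, and in young 2 lower.

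Further into Itgb2, 4 regions were called in all 6 libraries, 6759 to 20919 bp from the start. The strongest, in an exon at chr10:77550872-77551368, had heights of 17.9, 22.6 and 16.4 in young libraries and 22.04, 23.7 and 25.1 in middle-aged ones. The groups overlapped there, and the 4 centred differences were −0.03 to 0.12 on the log2 scale (limma, adjusted p = 0.826 to 0.959). The difference between the start and these regions was not tested. The exon region inside Itgb2 ranked at 70.6 to 87.9, above the start in each library that had both.

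**Figure D2:**
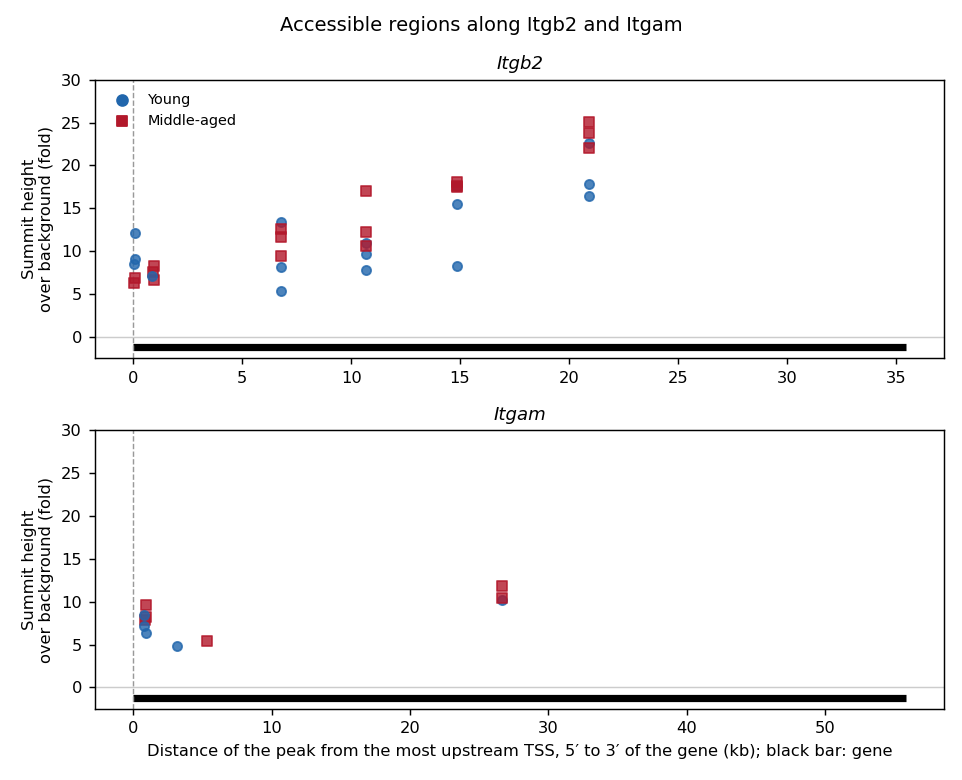
Summit height over background (fold) of every peak along Itgb2 (top) and Itgam (bottom) against distance from the most upstream TSS in kb, with circles for young, squares for middle-aged libraries and a black bar for the gene. At the start of Itgb2 the 3 young points lie above the 2 middle-aged ones, and points of both ages mix at the 4 regions further in.

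Of the stromal subunits, Itgav (alpha v, of vitronectin and fibronectin receptors) and Itgb1 (beta 1, the commonest partner) ranked highest. The height at Itgav was 30.1, 47.0 and 36.4 in young 1 to 3, and 59.8, 50.8 and 47.3 in middle-aged 1 to 3. The height at Itgb1 was 27.2, 38.9 and 36.4 in young libraries and 53.9, 52.9 and 44.0 in middle-aged ones. Before centring all middle-aged values of both genes were above all young ones. After it the groups overlapped, with log2 differences of 0.01 (95% confidence interval −0.29 to 0.30) for Itgav and 0.08 (−0.20 to 0.36) for Itgb1. Both are expressed by most cell types and not by stromal cells alone. Without them the leukocyte minus stromal difference was −74.0 to −20.5 over the libraries.

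Itga5 (alpha 5, the fibronectin receptor chain) showed the largest positive centred difference among the 20 genes fitted. Its height was 15.5, 14.8 and 13.4 in young 1 to 3, and 24.8, 22.1 and 24.3 in middle-aged 1 to 3. All middle-aged heights were higher before centring, and the ranks did not overlap either, at 35.7 to 75.8 against 75.8 to 83.0. Centred heights did overlap, and the log2 difference of 0.22 (SE 0.16) did not pass (limma, adjusted p = 0.796). Without centring it was 0.71 and passed (limma, adjusted p = 0.0128), as did 50.1% of all genes fitted.

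The other stromal subunits were less uniform. Itga1 (alpha 1, a collagen receptor chain) ranked at 70.8 to 77.6 except in young 3, at 37.4. Itga8 (alpha 8, which binds nephronectin) had heights of 8.27, 10.6 and 6.68 in young libraries and 11.02, 10.8 and 14.3 in middle-aged ones. It lay low in young 3, at rank 5.30, against 58.5 to 75.1 elsewhere. Its centred heights overlapped between the ages, with a log2 difference of 0.03. Itgb5 (beta 5, a partner of alpha v) had heights of 11.5 to 18.02 in young libraries and 19.6 to 20.9 in middle-aged ones at its leading region, which lies at a start inside the gene. After centring these overlapped, with a log2 difference of −0.06. The RefSeq start printed above also had a peak in all 6, at 6.13 to 11.7. Itga11 (alpha 11, a collagen receptor of fibroblasts) had a peak in middle-aged 1 alone, at a height of 5.51 and a rank of 9.29. Itga10 (alpha 10, of cartilage) had none.

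Among the laminin-binding or epithelial subunits, Itgb8 (beta 8, which activates latent TGF-beta with alpha v) was the highest, with heights of 11.5, 13.1 and 15.2 in young libraries and 13.0, 16.7 and 20.4 in middle-aged ones. Its ranks of 64.8 to 82.7 overlapped between the ages. Itga6 (alpha 6, a laminin receptor chain) had heights of 10.4, 10.95 and 7.89 in young libraries and 12.2, 10.8 and 8.23 in middle-aged ones. After centring its log2 difference was −0.40 (limma, adjusted p = 0.662), with overlap, and it was 0.092 without centring. Itga2 (alpha 2, a collagen receptor of platelets and epithelia) had heights of 5.6 and 6.01 in young 1 and 2, no peak in young 3, and 11.02, 7.08 and 9.31 in middle-aged libraries. The middle-aged values were above both young ones before centring. After it they overlapped, with middle-aged 2 the lowest of all. Itga7 (alpha 7, of muscle) was at the edge of calling: its start had a peak of height 5.07 in young 1 and 6.80 in middle-aged 3, and middle-aged 2 had one 392 bp downstream, at 4.995. Itga3, Itgb4 and Itgb6 (alpha 3, beta 4 and beta 6, of epithelia) had no TSS peak in any library.

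Of the subunits of platelets or of several lineages, Itga4 (alpha 4, which binds VCAM1 on blood and mesenchymal cells) was strong throughout. Its height was 18.7, 32.5 and 33.4 in young libraries and 32.3, 33.7 and 30.1 in middle-aged ones, at ranks of 79.8 to 87.7. Young 1 was the low library and the other 5 lay together. The centred log2 difference was −0.26 (limma, adjusted p = 0.724), and 0.23 without centring. Itga9 (alpha 9, which binds tenascin and osteopontin) had a peak in all 6 libraries, at heights of 12.5 to 19.7. Itgb3 (beta 3, of platelets and osteoclasts) had no peak in young 1, heights of 6.71 and 11.5 in young 2 and 3, against 13.4, 11.2 and 8.23 in middle-aged 1 to 3. The groups overlapped. Itga2b (alpha IIb, its platelet partner) had no TSS peak, but a region in an exon 2706 bp from its start was called in all 6 libraries at heights of 10.3 to 25.1.

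Syndecans are proteoglycans that bind matrix beside integrins. Sdc1 had heights of 7.47, 8.48 and 10.3 in young libraries and 9.05, 8.33 and 7.52 in middle-aged ones. These overlapped, but after centring every middle-aged value was below every young one, with a log2 difference of −0.56 (SE 0.15, limma, adjusted p = 0.375). Sdc2 was the highest syndecan by mean rank, with heights of 10.1, 12.7 and 11.5 in young libraries and 13.8, 22.1 and 16.8 in middle-aged ones. Its middle-aged heights were all higher before centring and overlapped after it. Sdc4, a component of focal adhesions, had heights of 12.3, 15.9 and 12.7 in young libraries and 16.5, 17.9 and 21.1 in middle-aged ones, again with no overlap before centring and with overlap after it. Sdc3 had a peak in young 2 at 9.54 and in middle-aged 1 and 3 at 9.84 and 11.5.

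Linkers and the kinase held some of the strongest starts. Ilk (integrin-linked kinase, a scaffold) had heights of 36.0, 44.2 and 36.4 in young libraries and 47.2, 55.0 and 59.8 in middle-aged ones, and its region is shared with the start of Rrp8. After centring the Ilk heights overlapped, with a log2 difference of −0.01. Ptk2 (focal adhesion kinase) ranked at 90.6 to 96.0, and Tln1 (talin 1), whose region is shared with Creb3, at 75.2 to 89.4. Vcl (vinculin) had heights of 22.1, 28.3 and 25.5 in young libraries and 45.3, 36.6 and 39.7 in middle-aged ones. The gap before centring was a log2 difference of 0.68, and after it 0.20 (limma, adjusted p = 0.787) with overlap.

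The kindlins differed among themselves. Fermt2 (kindlin 2, of most adherent cells) had heights of 9.33, 10.95 and 11.5 in young libraries and 16.1, 17.1 and 16.1 in middle-aged ones. It was the one gene whose middle-aged heights were all higher after centring too, with a log2 difference of 0.15 (limma, adjusted p = 0.838). Fermt3 (kindlin 3, of blood cells) had heights of 8.27, 14.8 and 15.8 in young libraries and 12.6, 11.7 and 12.9 in middle-aged ones. Its centred heights were all lower in middle-aged libraries, with a log2 difference of −0.50 (SE 0.16, limma, adjusted p = 0.442). By percentile rank it was 0.34 higher in middle-aged libraries, less than the median rise of 4.94 over all genes. Fermt1 (kindlin 1, of epithelia) and Tln2 (talin 2) had no TSS peak in any library.

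**Figure D3:**
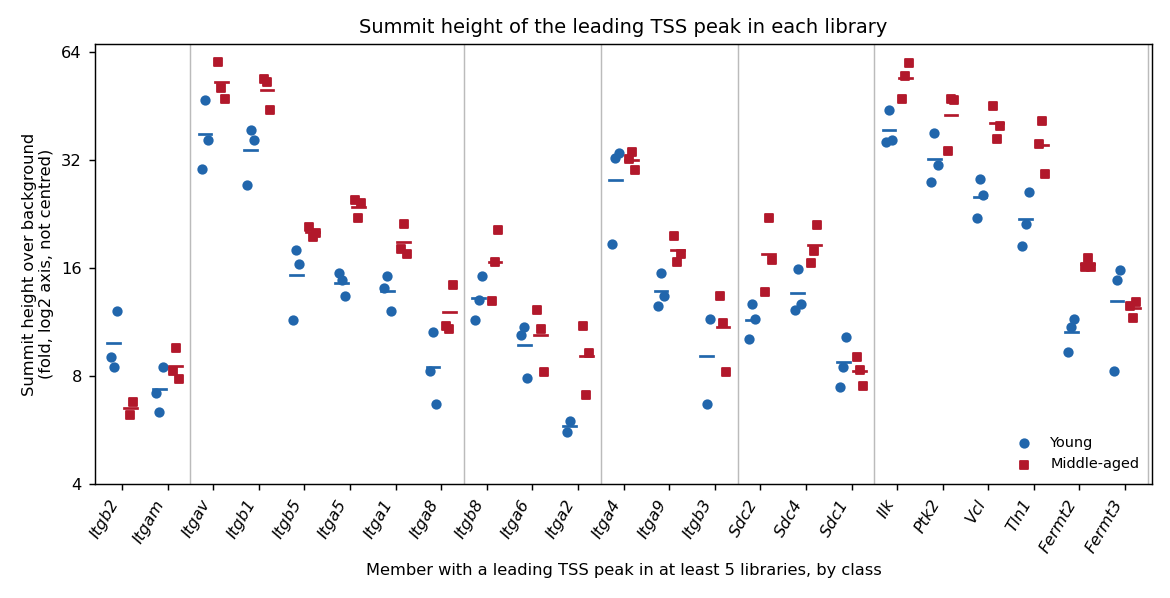
Summit height over background (fold, log2 axis, not centred) of the leading TSS peak of each gene with one in at least 5 libraries, grouped by class, with circles for young and squares for middle-aged libraries and a bar for each mean. Most middle-aged points lie above the young ones, as the median over all shared genes did by 0.49 on the log2 scale, while the young means are the higher ones for Itgb2, Sdc1 and Fermt3.

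The ages were tested over all 10515 genes whose leading region was called in all 6 libraries, which included 20 of the 39. No member passed an adjusted p of 0.05 and no gene did (0% in either direction, limma). At an unadjusted p under 0.05, 0 members were higher and 2 lower in middle-aged libraries (Sdc1 and Fermt3), against 2.36% and 5.27% of all genes. Centred heights did not overlap for 1 member that was higher (5.53% of all genes) and 2 that were lower (7.16% of all genes), shares of 20 genes near the background. With 1 group cut to 2 libraries fewer values can overlap, and the share of all genes rose too. The count higher was 3 of 21 without young 1 (9.59% of all genes), 2 of 20 without middle-aged 2 (10.1% of all genes) and 3 of 20 without middle-aged 3 (10.5% of all genes). The count lower was 4 of 21 without young 1 (14.03% of all genes) and 5 of 21 without middle-aged 1 (11.9% of all genes). Without young 3 the counts were 1 higher and 3 lower of 21 (9.99% and 13.9% of all genes). The exact permutation test over libraries gave Fermt2, Sdc1 and Fermt3 its smallest possible value, p = 0.1 two-sided. Groups of 3 without overlap always give this value, so it adds nothing to the lack of overlap. The median log2 difference was −0.04 over the 20 members and −0.01 over all genes, with 8 members above 0 and 12 below. By percentile rank 5 of 20 members were higher without overlap (Fermt2, Itga5, Sdc2, Tln1 and Vcl) and 0 lower, against 30.5% and 0.266% of all genes. No member had a TSS peak in at least 2 more libraries of one age than of the other, which 2.78% of all genes had in the middle-aged and 0.11% in the young direction.

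**Figure D4:**
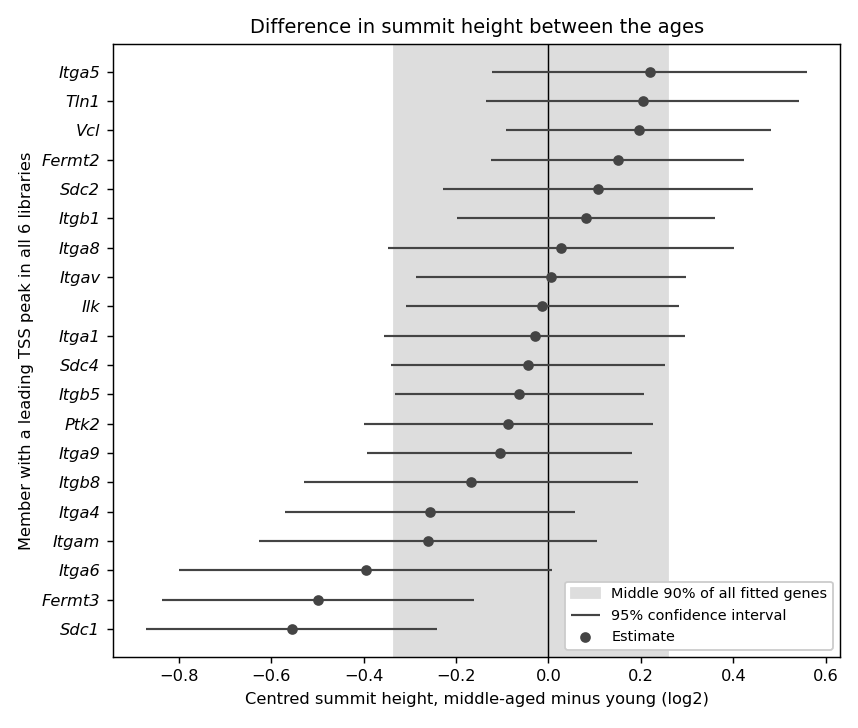
Difference in centred log2 summit height, middle-aged minus young, for the 20 genes with a leading TSS peak in all 6 libraries (points), with 95% confidence intervals (lines) and the middle 90% of all fitted genes (grey, −0.33 to 0.26). Sdc1, Fermt3 and Itga6 lie below the grey band, and none lies above it.

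Away from their own starts, 149 regions lay inside the 39 genes, 121 in introns and 28 in exons. Of the 149, 37 were called in all 6 libraries, a smaller share than the 35.1% of all regions. All regions include those at starts, so the 2 shares are not of like sets. Per library, 73, 94 and 51 of the 149 were called in young libraries and 95, 96 and 114 in middle-aged ones. These gave 72.7 ± 21.5 against 102 ± 10.7 (SD, n = 3 each), with no overlap. The ratio of 1.40 stood beside 1.44 for all regions away from starts. For the 53 regions in stromal subunits the ratio was 1.55 and for the 16 in leukocyte subunits 1.13, while the 22 in linkers and the kinase gave 1.64 and the 8 in syndecans 2.13. The differences between the classes were not tested. Middle-aged libraries alone held 5 of the 149 regions called in all 3 (2 in Itga1 and 1 each in Itga9, Itgav and Sdc2), against 2.21% of all regions, starts included. Young libraries alone held 1 of the 149 (in Itga8), against 0.036% of all regions, starts included.

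Some genes were accessible further in, with no TSS peak (Itgad, Itgb4 and Itgae) or with one in all 6 libraries (Itga1, Itga5, Itga8 and Itgb5). Itgad had 1 intronic region in all 6 libraries and Itgb4 an exonic one, at chr11:116004774-116005381, with heights of 12.0, 13.1 and 13.96 in young libraries and 20.1, 22.5 and 23.3 in middle-aged ones. Centred heights at the Itgb4 region did not overlap, with a log2 difference of 0.40 (limma, adjusted p = 0.457). Itgae had a region at heights of 20.03 to 37.9, which is also the start of Haspin, and Itga1 one at 35.5 to 55.8, which is also the start of Pelo. An exonic Itga5 region at chr15:103358536-103359125 had heights of 8.27, 7.42 and 8.5 in young libraries and 13.0, 16.2 and 15.4 in middle-aged ones, and a log2 difference of 0.52 (limma, adjusted p = 0.413) with no overlap. An intronic Itga8 region at chr2:12206387-12206699 was lower with no overlap after centring, with a log2 difference of −0.48 (limma, adjusted p = 0.407), and so was one in Itgb5 at chr16:33836527-33836978 (log2 difference −0.37, limma, adjusted p = 0.493). Of the 37 regions, 2 were higher and 2 lower without overlap, against 10.2% and 6.58% of 22403 regions called in all 6 libraries. None of the 37 passed, and 0 of the 22403 did. At an unadjusted p under 0.05 (limma) there were 5 of the 37, against 2293 of the 22403 (10.2%). This fit over regions was added after the data were seen, and the regions named were picked after their values were seen.

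CpG content moved with calling. RefSeq promoter windows of 300 bases, 250 of them upstream, were matched for 28 of the 39 genes. Itga6, Itga7, Itgad, Itgae, Itgal, Itgb2, Itgb3, Itgb4, Ptk2, Sdc2 and Tln2 had no entry. For Itga9 and Itgb5 the window lies at another start than the leading region. The Itgam window does not overlap its leading region. The Itga4, Itga5 and Itgb8 windows overlap their regions but hold none of their summits. The median ratio of observed to expected CpG was 0.619 for the 17 members with a TSS peak in all 6 libraries, 0.492 for the 4 with one in some and 0.266 for the 7 with none. For all genes it was 0.794, 0.6003 and 0.200. The members spread around this. Fermt3, at 0.146, Itgam, at 0.316, and Itga4, at 0.322, had a peak in all 6 libraries, whereas Itga3, at 0.768, and Itgb6, at 0.633, had none.

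**Figure D5:**
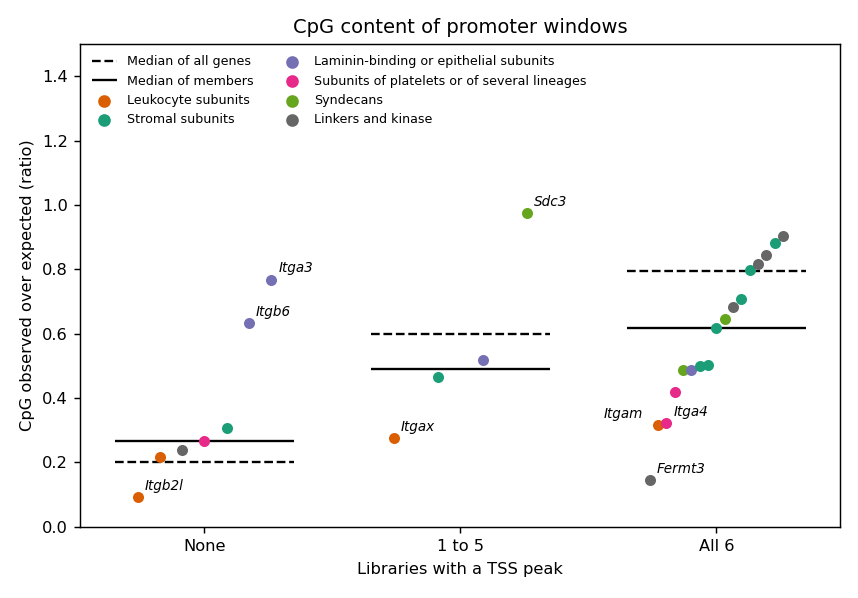
Ratio of observed to expected CpG in the 300-base promoter window of the 28 genes with one (points, coloured by class) by the number of libraries with a TSS peak, with the median of members (solid) and of all genes (dashed). Fermt3 is the lowest point among the genes called in all 6 libraries, and Itga3 and Itgb6 are high among those never called.

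The motifs did not divide the classes cleanly. GGGCGG was in 14 of 28 promoters (50.0%), in 4 of 8 stromal and 1 of 4 leukocyte subunits. GAGGAAGT was in Itgav, Itga11, Itgb7 and Itgb2l, the last 2 of which had no peak. TGTGGT was in Itga4, Ilk, Itgax and Fermt3, GGAATG in Itga10, Itgb1 and Vcl, TGANTCA in Itgax and Itga9, and CACGTG (E-box, 8.11% of all promoters) in Ilk. The CArG box, the serum response factor motif, was in Vcl and Fermt2, and in 1.54% of all promoters. No match says only that these letters are not in this window.

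Genes around the integrins were examined as lists. For comparison, 49.5% to 58.0% of all protein-coding genes had a TSS peak per library. Of 30 adaptor and signalling genes, 25 to 29 had a TSS peak per library, fewest in young 3, and Parvg (gamma-parvin, of blood cells) was the 1 with none. Of the 25 fitted, 0 passed and 1 was lower at an unadjusted p under 0.05, against 5.27% of all genes. It was Nedd9, a scaffold beside p130Cas, with a log2 difference of −0.37 (limma, adjusted p = 0.549). The median difference of the list was 0.05. Of 20 ligand genes, 6 to 12 had a peak per library, fewest again in young 3. Vtn, Vcam1, Madcam1, Lama2, Lamb1 and Ibsp had none, while Spp1 (osteopontin) and Icam1 (a ligand of beta 2 integrins) had one in all 6. Of the 6 ligand genes fitted, 0 passed and 1 was lower at an unadjusted p under 0.05 (Lama3, a laminin chain), beside the same 5.27%. The median difference of the 6 was −0.04.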

How the data were processed

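Peak lists of 6 ATAC-seq libraries, 3 young and 3 middle-aged, were used, 1 list per library, grouped and numbered by their labels. Before deposit the authors ran bcl2fastq, Bowtie2 on mm10, Sambamba to drop duplicates and MACS to call peaks. The deposited fold enrichment is the authors' ratio of the summit pileup over a local background, the −log10 p and −log10 q values deposited by the authors come from the same test, and the deposited score is a whole-number version of −log10 q. Lists hold peaks past a threshold only, so depth appears only as the background of 1.65 to 3.75 extended reads per base.

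The pileup at each summit was recovered from the fold and −log10 p, and came out whole for 100% of peaks, within 0.001 in −log10 p. Its ratio to the lowest local background of the list is the summit height. Peaks were merged across libraries at an overlap of 1 bp. TSSs of 21853 protein-coding genes came from GENCODE for GRCm38. Log2 heights, centred per library on the median of shared genes, were compared by limma with age as the only term, two-sided, with Benjamini-Hochberg adjustment over all 10515 genes; the fit was checked on simulated data. With 20 ways to assign the libraries, the exact permutation test cannot fall below 0.1. Versions were limma 3.58.1, R 4.3.3 and Python 3.11.15. The DiffBind test of the study needs reads and was not repeated. Alternatives were other TSS windows, thresholds, equally long lists, scalings, weights and each library left out.

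Members, classes, lists and motifs were chosen with earlier results of these data known. Values in every library are given for genes called in some libraries, those with the 6 smallest p values, the highest and lowest of each class, and a fixed list of subunits. The ages were compared without pairing, as the correlations of same-numbered libraries' deviations were 0.01, 0.04 and 0.02.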

Additional observations from a re-analysis of the deposited data

How the results depend on the processing

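The counts of genes with a TSS peak in all 6 libraries and in none stayed within 1.5 times under all 12 settings tried, which were added after seeing the data. No gene of the set passed an adjusted p of 0.05 in 19 of 20 alternative limma fits, and 8 did without centring, where 5263 of 10515 genes passed, each of them higher in middle-aged libraries. A replicate block on the library numbers, which do not pair the libraries, gave 0 genes of the set past 0.05 and 849 of all genes at an unadjusted p under 0.05. Genes with middle-aged heights higher without overlap numbered 0 with the deposited fold enrichment (5.06% of all genes), 5 by rank (30.5%) and 13 without centring (60.8%), and 1 to 3 with each library left out (9.29% to 11.3%). Those lower numbered 1 with equally long lists (Fermt3, 7.18% of all genes), 1 with the fold enrichment (Itga4, 10.4%), where Sdc1 and Fermt3 overlapped, 0 by rank (0.266%) and 0 without centring (0.0190%), and 2 to 5 with each library left out (10.98% to 14.03%). Middle-aged libraries had 1.33 more genes of the set with a TSS peak, a rise of 3.42 percentage points beside 4.01 for all protein-coding genes. The 1.33 turned to −1.67 with equally long lists and was 0.667 to 1.67 with each library left out. The leukocyte minus stromal difference was −73.6 to −65.5 in rank with each library left out. In rank the leukocyte median was 0 in every library, so these values follow the stromal median alone. On the log2 height scale the difference was −2.11, with uncalled genes set to the lowest peak height of their library. The leukocyte median was that lowest height in every library, so the sign was fixed on this scale too. Of the 12 fitted genes of the set below 0, 11 turned above 0 by rank and 10 without centring, 2 scales on which all genes shifted by a median of 4.94 and 0.48. Among them by rank were Fermt3 (0.34), Itga6 (4.70), Itga4 (0.55) and Itgam (10.82), and without centring Itga6 (0.092), Itga4 (0.23) and Itgam (0.23). Relative to those medians, 6 of the 12 lay above by rank and 0 without centring. The causes were not tested. With 3 libraries a group and lists cut at a threshold, a missing peak may be a peak just under it.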
